A study of Mus musculus with 4 samples.

Results

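The genes described here are 10 genes of the ETS family of transcription factors, taken from the 26089 genes with a curated RefSeq transcript: Spi1, which encodes PU.1, and Spib, Ets1, Ets2, Elf1, Elf4, Etv3, Etv6, Fli1 and Elk3. Genes were selected by name and peaks by position, and no measured value entered the rule. The list of genes was, however, chosen with earlier results of these data known. A peak was assigned to a gene when its summit, the position of highest coverage, lay in the gene body or within 50 kb of a curated transcription start site (TSS) of the gene. Of 16369 SMAD4 peaks in replicate 1, 39 met this rule, and of 19015 in replicate 2, 46 did. Binding was measured in alveolar macrophages (AMs), which reside in the airspaces of the lung, washed from wild-type C57BL/6J mice aged 9 weeks by bronchoalveolar lavage and sorted in aliquots of 200k cells. SMAD4 binding was profiled by HT-ChIPmentation, in which immunoprecipitated chromatin receives its sequencing adapters from the transposase Tn5 on the beads, with a combination of SMAD4 antibodies. The samples are 2 SMAD4 libraries and 2 inputs without antibody, all of 1 condition. The inputs served only as the control of the peak calls and were not analysed here as samples, so no comparison between conditions exists. Nothing in the sources used here says whether both libraries came from separate mice, and their agreement may be technical.

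ETS factors share a winged-helix DNA-binding domain, the ETS domain, that recognises a GGAA core, and the bases around the core differ between subgroups. PU.1 is a lineage-determining factor of macrophages and other myeloid cells, and its level influences which blood lineage a progenitor takes. SMAD4 is the common partner of the receptor-activated SMAD proteins, which carry TGFβ and BMP signals to the nucleus and bind DNA weakly on their own, often beside lineage factors such as PU.1.

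SMAD4 peaks lay at 8 of the 10 genes, the same 8 in both replicates. In replicate 1, 45.3% of all curated genes held a peak under this rule, and in replicate 2, 51.9% did. A region was called shared when a peak of each replicate overlapped by at least 1 bp. There were 33 shared regions at the ETS genes, of 10964 in the genome, and 8 of 10 genes (80%) had at least 1, beside 38% of all curated genes and 39.1% of the 20923 protein-coding ones. Etv6 had 13 shared regions, Spi1, Elf1 and Fli1 had 5 each, Ets2 had 2, and Elf4, Etv3 and Elk3 had 1 each. Spib and Ets1 had no peak in either replicate.

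The windows below show the strand given as plus in mm10, 5′ to 3′, from 100 bp before to 100 bp after the mean summit of both replicates. Capitals mark each string that was searched for and found, as spelled out with the sequence counts further on. Strength is ranked here by the smaller of the fold enrichments of both replicates, a measure explained further on. The first is the window at the strongest shared region of Spi1 by this rank, and none of the 11 strings occurred in it. In replicate 2 alone, the fold of that region, 7.22, was the lowest value among the shared Spi1 regions. The summits of that region, 91089691 in replicate 1 and 91089389 in replicate 2, both lay outside this window. The sequence at them was searched only in the alternative window of 200 bp each side, which is not shown. After it come the strongest regions of Ets2, Etv6 and Fli1, the members whose top region ranked highest. The last is another Fli1 region, shown, after its sequence was seen, as the 1 window of the 33 with the PU.1 string.
Spi1 strongest region, chr2:91089440-91089640: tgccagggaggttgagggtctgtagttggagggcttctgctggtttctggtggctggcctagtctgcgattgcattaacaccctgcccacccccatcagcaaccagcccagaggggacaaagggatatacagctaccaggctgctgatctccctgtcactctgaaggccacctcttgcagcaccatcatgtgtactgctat
Ets2 strongest region, chr16:95729011-95729211: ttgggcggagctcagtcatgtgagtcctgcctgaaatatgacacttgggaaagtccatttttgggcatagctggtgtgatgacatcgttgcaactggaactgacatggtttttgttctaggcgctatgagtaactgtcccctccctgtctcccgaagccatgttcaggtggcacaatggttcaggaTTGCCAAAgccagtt
Etv6 strongest region, chr6:134018913-134019113: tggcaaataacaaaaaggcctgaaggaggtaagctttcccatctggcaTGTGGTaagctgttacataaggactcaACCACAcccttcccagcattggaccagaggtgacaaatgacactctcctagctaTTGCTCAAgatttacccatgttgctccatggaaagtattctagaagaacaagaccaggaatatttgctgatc
Fli1 strongest region, chr9:32539361-32539561: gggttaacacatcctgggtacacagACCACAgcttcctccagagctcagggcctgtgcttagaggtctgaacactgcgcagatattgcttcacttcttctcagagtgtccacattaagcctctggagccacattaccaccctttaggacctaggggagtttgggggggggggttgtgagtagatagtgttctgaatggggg
Fli1 region with the PU.1 string, chr9:32508895-32509095: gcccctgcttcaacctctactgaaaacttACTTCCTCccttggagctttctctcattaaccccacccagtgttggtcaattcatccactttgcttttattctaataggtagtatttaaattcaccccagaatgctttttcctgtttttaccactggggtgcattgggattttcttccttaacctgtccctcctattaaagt

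**Figure D1:**
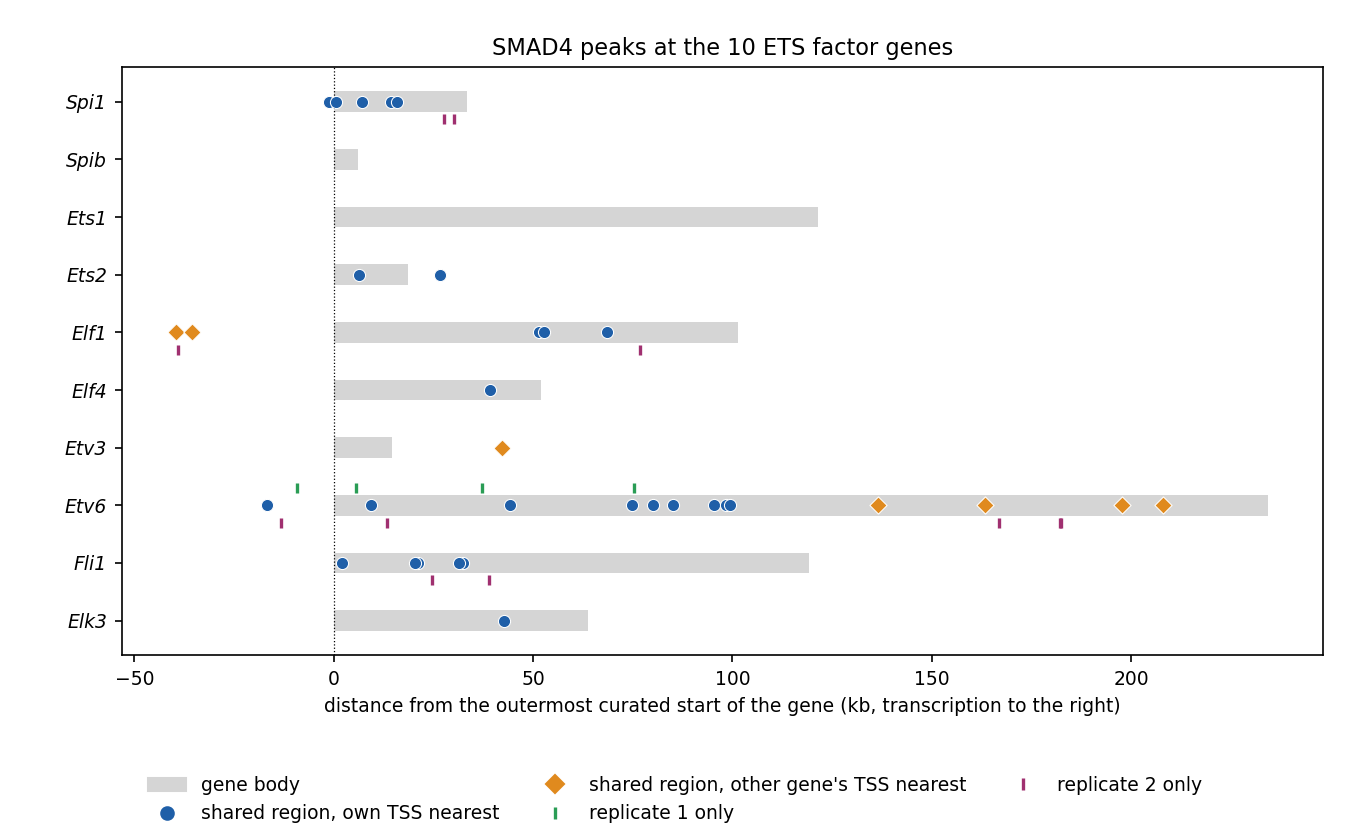
Position of SMAD4 peaks at the 10 ETS genes, in kb from the outermost curated start of each gene with transcription to the right. Circles and diamonds are the 33 shared regions, diamonds those with the TSS of another gene nearest, and ticks above and below each gene are peaks of replicate 1 only and replicate 2 only. Etv6 holds 13 shared regions along 224.7 kb, while Spib and Ets1 hold no peak.

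Spi1 carried a row of modest SMAD4 peaks that ran from just upstream of its outermost TSS to just inside its main gene body. The gene has 3 curated transcripts on chromosome 2, plus strand, at 91082405 to 91115759, with an upstream TSS and, 14273 bp further on, a downstream pair. The 5 shared regions spanned 17.1 kb, and all had a Spi1 TSS nearest. Replicate 1 had 6 peaks here and replicate 2 had 7.

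The values below are the fold enrichment, which is the fragment pileup at the summit plus 1 over the control level plus 1, then the whole fragments stacked there, then −log10 q. The region farthest upstream, 91081109 to 91081499, was intergenic, 1143 bp before the upstream TSS. Its fold was 5.20 in replicate 1 and 9.02 in replicate 2, from 15 and 19 fragments, with −log10 q of 5.93 and 13.8. The next, 91082798 to 91083337, lay in the first intron of the long transcript, 548 bp after the upstream TSS and 13.7 kb before the downstream one. It had folds of 6.17 and 11.3 from 18 and 24 fragments, and −log10 q of 8.61 and 20.1. In replicate 2 this was the highest of the Spi1 peaks. Spi1 is known to have an upstream regulatory element on this side of its main promoter. Its coordinates are not in the files, so no overlap with it was determined.

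The region with the largest smaller fold, 91089112 to 91089783, lay in the same intron, 7.14 kb before the downstream TSS. Its folds were 7.15 and 7.22, from 21 and 15 fragments, with −log10 q of 11.5 and 9.28. It thus led in replicate 1, while in replicate 2 its fold was the lowest of the shared Spi1 regions, level with the last one below. Replicate 1 had 2 peaks in it, and the summits of both replicates were 302 bp apart, the widest gap of the 33 regions. The only region at a promoter of a member was 91096612 to 91096843, whose mean summit was 32 bp after a TSS of the downstream pair. Both replicates had 16 fragments there (exact Poisson 95% interval 9.15 to 26, which covers counting error only). The folds were 5.52 and 7.67, and −log10 q was 6.80 and 10.4. Its summits were 91096734 and 91096730. The last region, 91098235 to 91098537, lay in an intron 1620 bp after a downstream TSS, with folds of 3.90 and 7.22 from 11 and 15 fragments and −log10 q of 2.80 and 9.28. Its summits in both replicates were 1 bp apart, although only 3.29% of all shared regions had a lower smaller fold.

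Within Spi1, replicate 2 had the higher fold at all 5 regions, by 1.01 times at the strongest one and by 1.39 to 1.85 times at the other 4. The fragments stacked at the summit were higher in replicate 2 at 3 regions, equal at the promoter and lower at the strongest region. The control level at all 5 summits was the genome-wide background of each library (2.08 and 1.22 fragments), so the difference in fold came with the difference in control level as well as in fragments. A ratio of folds between the replicates therefore describes the lists and is not a difference in binding. Replicate 2 had 2 more peaks in an intron towards the end of the gene, 13265 and 16007 bp after the downstream TSS, with folds of 6.32 and 8.12 from 13 and 17 fragments. Replicate 1 had no peak at either, and the nearest TSS was that of Mybpc3, which encodes a sarcomere protein. Among all shared regions, the Spi1 regions ranked low to middling: by the smaller of both folds they exceeded 3.29% to 55.7% of shared regions, with a median of 32.2%.

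**Figure D2:**
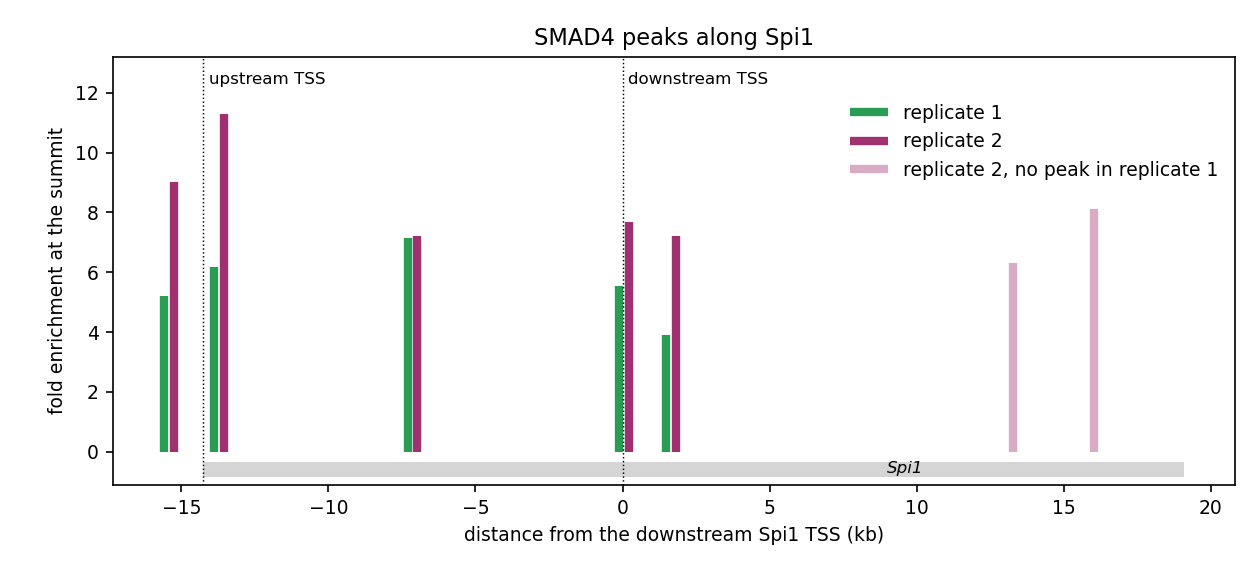
Fold enrichment at the summit of each SMAD4 peak along Spi1, plotted against the distance from the downstream TSS in kb. Paired bars are the 5 shared regions at their mean summit, in replicate 1 from 3.90 to 7.15 and in replicate 2 from 7.22 to 11.3, and the pale bars are the 2 peaks of replicate 2 with no partner in replicate 1.

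Spib encodes the closest relative of PU.1, a factor of B cells and plasmacytoid dendritic cells, and its window of 100 kb on chromosome 7 held no peak. The peak nearest to its TSS was 251 kb away in replicate 1 and 190 kb away in replicate 2. Ets1, a factor of lymphocytes and endothelium, had no peak in a window of 171.6 kb. Ets1 lies beside Fli1 on chromosome 9, with 94.8 kb between their TSSs, and the peak nearest to an Ets1 TSS was the strongest Fli1 region in both replicates, 96.8 kb upstream. The smallest pileup of any peak in the lists was 9 fragments in replicate 1 and 7 in replicate 2, so weaker binding at Spib or Ets1 was not detectable at this depth.

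Ets2, a broadly expressed factor that responds to Ras and MAP kinase signals, had few but strong regions. Its strongest, chromosome 16, 95728690 to 95729445, was intergenic and lay past the end of the gene, 26704 bp after the TSS. It had folds of 15.2 and 25.1 from 50 and 59 fragments, and −log10 q of 43.9 and 69.5. This was the highest fold at any of the 10 genes in both replicates, and 91.2% of all shared regions had a lower one. The second lay in an intron 6351 bp after the TSS (95708221 to 95708992), with folds of 12.7 and 15.8 from 38 and 34 fragments, above 86.3% of all shared regions.

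Etv6, which encodes the repressor TEL, held the most regions. Its 234-kb gene on chromosome 6 had 17 peaks in replicate 1 and 19 in replicate 2, which formed 13 shared regions. The strongest, 134018765 to 134019351, was intergenic, 16687 bp upstream of the only curated TSS. It had folds of 11.9 and 18.4 from 39 and 43 fragments, and −log10 q of 30.1 and 44.7. The other 12 lay in introns of Etv6, with folds of 4.22 to 11.0 in replicate 1 and 5.41 to 16.7 in replicate 2. They were spread from 9340 to 207985 bp after the TSS, 10 of them more than 50 kb from it, and a window around the TSS alone would have missed those. For 4 of the 13, all at least 136483 bp into the gene, the TSS of the noncoding RNA gene LOC118027456 was nearer. One of these 4 lay 34 bp after that TSS, at its promoter, and another in one of its exons. All 4 peaks of replicate 1 without a partner in replicate 2 were at Etv6, with folds of 4.22 to 5.37.

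Fli1, a factor of megakaryocytes, endothelium and other blood cells, had 5 regions, all in its introns and within 32457 bp of its TSS. The one with the largest smaller fold, chromosome 9, 32539235 to 32539660, lay 1991 bp after the TSS, with folds of 10.4 and 18.5 from 31 and 40 fragments and −log10 q of 22.4 and 42.6. The others formed close pairs, 20524 and 21115 bp and 31471 and 32457 bp after the TSS. Their folds ran from 4.77 to 10.7 in replicate 1 and from 7.36 to 9.82 in replicate 2. Both regions of the pair nearer to the TSS held a CEBP string centred 12 bp from the mean summit. In the widest of the 33 regions, 885 bp at 32508492 to 32509376, both replicates had 2 peaks, and this was the region with the PU.1 string.

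Elf1, a factor widely used in blood cells, had 5 regions, 3 in its introns and 2 upstream. The strongest, chromosome 14, 79441307 to 79441889, was intergenic and lay 39522 bp before the Elf1 TSS but 10163 bp before that of Kbtbd6, which encodes a ubiquitin ligase adaptor and was the nearest gene. It had folds of 9.10 and 19.9, which differed by 2.18 times, from 27 and 43 fragments, and −log10 q of 17.8 and 47.1. The second upstream region also had Kbtbd6 nearest, with folds of 6.17 and 10.4. The intronic regions had folds of 3.14 to 7.72 in replicate 1 and 4.96 to 9.53 in replicate 2. By the smaller fold, the weakest of them was the lowest of all 33 regions, at 3.14 in replicate 1. That value came from 12 fragments where the control level was raised to 3.14, and only 0.401% of all shared regions had a lower one. In replicate 2 the same region had a fold of 7.67 from 16 fragments.

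The last 3 genes had 1 region each, none near a promoter. Etv3 encodes a repressor linked to the arrest of macrophage proliferation. Its region on chromosome 3, 87567541 to 87567885, was intergenic, 42123 bp after its TSS and past its end, with Etv3l nearest, and had folds of 7.76 and 10.4 from 25 and 22 fragments and −log10 q of 14.4 and 17.5. Elf4 encodes an activator of interferon genes. Its intronic region on chromosome X, 48423685 to 48423858, lay 30522 bp after a TSS, with folds of 4.22 and 5.86 from 12 and 13 fragments and −log10 q of 3.53 and 6.47. Elk3 encodes a ternary complex factor that partners serum response factor. Its intronic region on chromosome 10, 93268408 to 93268716, lay 42612 bp after the TSS, with folds of 4.87 and 7.67 from 14 and 16 fragments and −log10 q of 5.10 and 10.4. By the smaller fold, the Elf4 and Elk3 regions exceeded 6.91% and 18.4% of all shared regions, and the Etv3 region 62.0%.

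**Figure D3:**
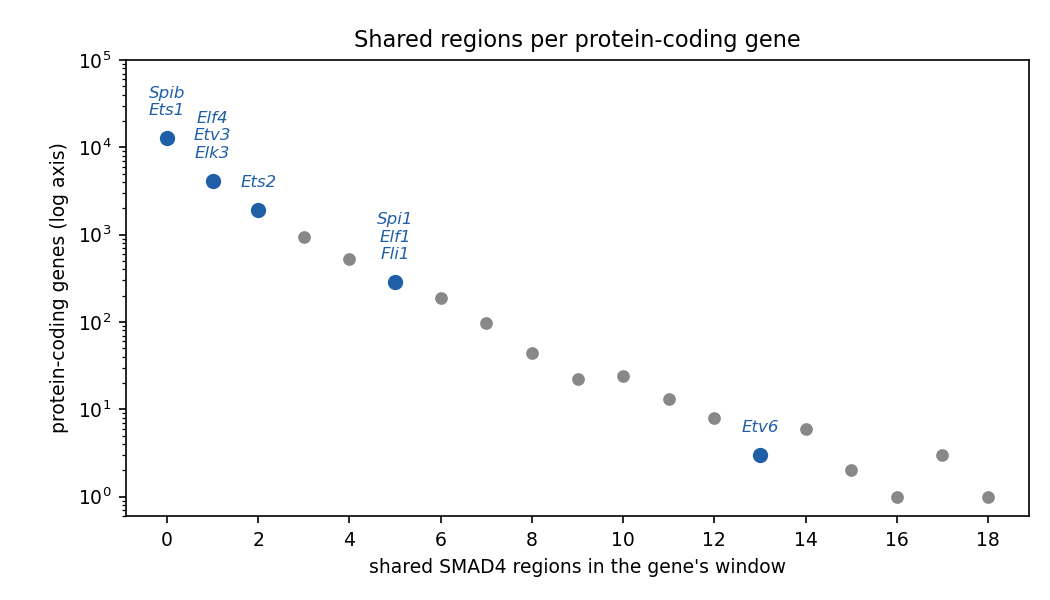
Number of protein-coding genes (log axis) with each number of shared SMAD4 regions in their window, with the 10 ETS genes marked in blue. Etv6, with 13, has more than 99.9% of protein-coding genes, and Spi1, Elf1 and Fli1, with 5 each, more than 96.7%.

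Across protein-coding genes, 3.33% had 5 or more shared regions and 0.0765% had 13 or more. Long genes have larger windows, so the regions were also counted per length. The windows of the 10 genes covered 1408 kb and held 2.34 shared regions per 100 kb, beside 0.587 for the windows of all curated genes, a ratio of 3.99. Without Etv6 the density was 1.78 and the ratio 3.03. Within the 10 genes it ran from 0 at Spib and Ets1 through 0.879 at Elk3 and 0.919 at Elf4 to 4.37 at Spi1 and 4.57 at Etv6. Spi1 and Etv6 thus had close densities although Etv6 had 13 regions and Spi1 had 5. No region fell in the windows of 2 members. The 10 genes are a chosen part of the ETS family and not a random draw, and these counts are a description without a test. They do not stand for the whole family: of 16 other ETS genes, counted further on, 6 (37.5%) had a shared region.

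The 33 regions were mostly inside the genes and away from promoters. In the order promoter (from 1 kb before to 100 bp after a TSS), transcript end, exon, intron, intergenic, 24 (72.7%) were intronic, beside 49.3% of all shared regions. The rule itself takes in whole gene bodies, which favours introns. A further 6 (18.2%, beside 40.5%) were intergenic, 2 (6.06%, beside 6.42%) were at a promoter and 1 was in an exon. The median distance to the TSS of the member was 32457 bp. The distance to the nearest TSS of any gene had a median of 20524 bp, beside 18040.5 bp over all shared regions. A TSS of the member was the nearest for 26 of the 33, and Kbtbd6 (2), Etv3l (1) and LOC118027456 (4) were nearest for the other 7. Over all curated genes, 20.9% had the nearest TSS to at least 1 shared region, and 7 of the 10 members did (all with a shared region except Etv3).

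Most SMAD4 peaks at the ETS genes had a partner in the other replicate, and their strength was near that of shared regions in general. In replicate 1, 35 of the 39 peaks (89.7%) overlapped a peak of replicate 2, beside 69.4% of all peaks. In replicate 2, 35 of 46 (76.1%) had a partner, beside 59.2%. The 11 peaks of replicate 2 without a partner had folds of 4.06 to 8.12 from 8 to 17 fragments. The median of the smaller fold was 6.17 over the 33 regions and 6.50 over all shared regions. By this measure, the median region exceeded 43.2% of all shared regions. Only 1 of the 33, at Ets2, exceeded at least 90% of them, 7 exceeded at least 75% and 9 exceeded less than 25%. The median summit gap between replicates was 42 bp, beside 49 bp, and the median width 426 bp, beside 440 bp. Fold was higher in replicate 2 at 30 of the 33 regions (90.9%), beside 87.2% over all shared regions, and the median ratio of both folds was 1.39 in both sets.

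**Figure D4:**
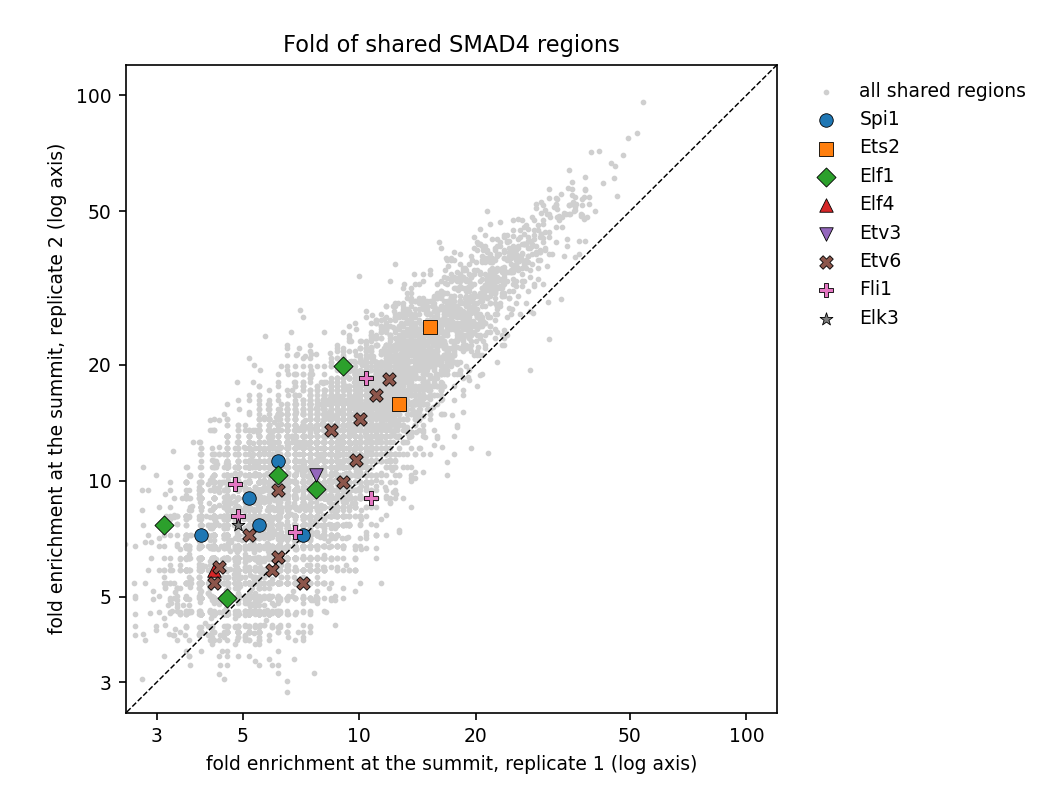
Fold enrichment of the 33 shared regions at 8 ETS genes, replicate 1 against replicate 2 on log axes, over all 10964 shared regions in grey, with equal folds on the dashed line. Ets2 holds the highest values of the 33 (15.2 and 25.1), and 30 of the 33 points lie above the line.

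The windows were then searched for the strings of ETS and other factors. The strings, read on both strands within 100 bp of the mean summit, were PU.1 GAGGAAGT, the ELF5-type CAGGAAGT, a general ETS string CCGGAAGT, CEBP TTGCNNAA, AP-1 TGAGTCA, RUNX TGTGGT, SMAD GTCTGG and its palindrome GTCTAGAC, the nuclear receptor string AGGTCA, the E-box CACGTG and STAT TTCNNNGAA. None contains another, and the PU.1, ELF5-type and general ETS strings, which end alike, cannot match at the same place. The PU.1 string lay in 1 of 33 windows (3.03%), beside 8.0% of all shared regions and 2.08% of promoter sequences of the same length from RefSeq. The exact binomial 95% interval of that share was 0.0767% to 15.8%. It covers counting error only and takes the windows as independent, although 13 of the 33 were at Etv6. It is no test against the other shares, and no difference in share is read from it. It was the Fli1 region printed last above, centred 68 bp from the mean summit. The summits of that region, 32508857 in replicate 1 and 32509134 in replicate 2, were 277 bp apart, and both lay outside the window. The ELF5-type string lay in 1 window (beside 5.62%). The general ETS string lay in none, beside 0.511%. Together the 3 ETS strings occurred in 2 windows (6.06%, beside 13.7%). These are exact strings, and their absence from a window says only that these letters are not in it.

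The CEBP string, that of the C/EBP factors of myeloid cells, was the most frequent. It lay in 19 of 33 windows (57.6%), beside 40.9% of all shared regions and 7.55% of promoters. Each of the 8 genes with a shared region had it in at least 1 window, Etv6 in 8 of 13 and Spi1 in 3 of 5. A gene with more windows had more places to hold it. It was in the strongest window of Ets2, Elf1 and Etv6 and in the single windows of Elf4, Etv3 and Elk3. Of the 19 windows with it, 8 were at Etv6, and no difference in share is read from these counts. The SMAD string GTCTGG lay in 2 windows (6.06%, beside 11.2%), at Spi1 and Elk3, and its palindrome in none (beside 0.465%). RUNX lay in 7 windows (21.2%, beside 26.4%), the nuclear receptor string in 6 (18.2%, beside 15.4%) and AP-1 in 3 (9.09%, beside 8.91%). The E-box lay in 2 (6.06%, beside 3.65%) and STAT in 2 (6.06%, beside 8.06%). The Elk3 window held AP-1, SMAD and CEBP strings together, and 8 windows held none of the 11. The mean GC content was 45.5% ± 6.81 (SD over 33 windows), beside 43.7% ± 6.49, and the 2 highest were at Spi1, at 60.2%.

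**Figure D5:**
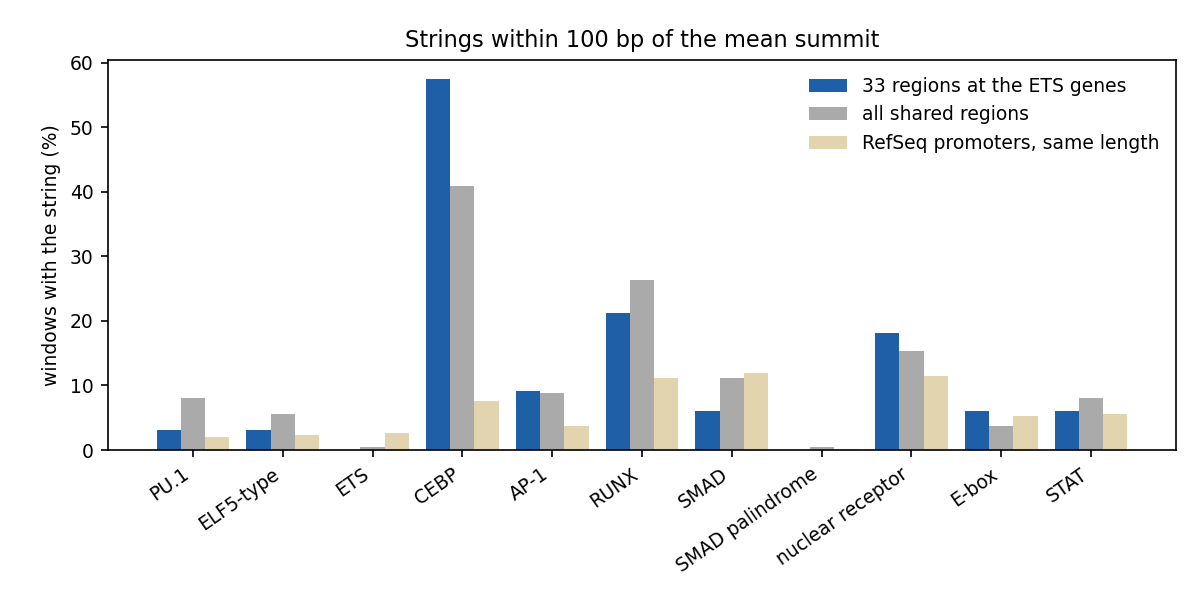
Percent of windows of 201 bases with each string, for the 33 regions at the ETS genes (blue), all 10964 shared regions (grey) and RefSeq promoters of the same length (pale). The CEBP string is the most frequent in the 33 windows at 57.6%, and the PU.1 string lies in 3.03% of them and 8.0% of all shared regions.

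Another 16 mouse ETS genes were counted by the same rule. A shared region lay at 6 of them (37.5%, beside 38% of all curated genes), 9 regions in all, 6 of which had the TSS of a gene other than the one counted nearest. Elf2, a relative of Elf1, had 3, with a largest smaller fold of 23.7, above any at the 10 genes. Erf, a repressor, had 2, and Elk1, Etv4, Elf3 and Spic had 1 each. Spic, which encodes the third PU.1 relative and marks red pulp macrophages, had a region with a smaller fold of 9.42. The TSS of another gene was nearest to that region. Etv3l, a relative of Etv3, is not among the 16, and the Etv3 region lies in its window too. As a check of the labelled cell type, all 9 AM marker genes, among them Siglecf, Marco and Pparg, had a shared region, and 6 of 14 markers of lymphocytes, neutrophils, epithelium and endothelium had one. Binding near a gene is not its expression, and this check says nothing of how pure the sorted cells were.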

How the data were processed

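SMAD4 HT-ChIPmentation peak lists of 2 libraries were analysed. Per the labels and the study's methods, reads were trimmed (Cutadapt) and mapped to mm10 (Bowtie2), and the authors removed duplicates and kept properly paired reads with a mapping quality above 30. They called peaks with MACS3 in each sample separately, against input, at a q-value limit of 0.05. For each peak the authors deposited the fold ratio of summit pileup over control level (1 added to each), the −log10 p and −log10 q values and the position of the summit. Depth is not given in the lists. It was read from the fold and −log10 p as whole fragments at the summit, within 0.0014 fragments for every peak. Genes, features and nearest TSSs came from 45657 curated RefSeq transcripts of GRCm38, the assembly of mm10, on chromosomes 1 to 19 and X. Sequences are from RefSeq, GRCm38. Peaks were joined with pandas 2.3.3 and sequences read with pyfaidx 0.9.0.4. The reading of fragments, the assignment of peaks to genes, the overlap and the nearest TSS were tested on simulated data. The other steps, among them the string search, were not. Library numbers follow the order of the labels. The members and lists were chosen with earlier results of these data known. All 10 genes are named. Regions given in full are all those of Spi1, the one with the largest smaller fold for each other gene, and any at a promoter of a member, and the last Fli1 sequence was added after the data were seen. Sequences of 5 of the 33 windows are printed, and the others are not reported here. No test was run: there is 1 condition, and peaks and genes are not replicates. Alternatives covered the peak limits, window, overlap, transcripts, string window and single libraries.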

Additional observations from a re-analysis of the deposited data

How the results depend on the processing

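Of 51 alternative values of the main results, 41 stayed within 1.5 times (counts) or within the spread between replicates or the counting interval (other values). With both libraries, the 33 shared regions ranged from 24 at a fold of at least 5 to 35 with windows of 100 kb, the genes with one from 6 to 9, and the regions with a member's TSS nearest from 18, at that fold or with predicted transcripts included, to 28. All peaks of 1 library alone gave 39 to 46 regions, 32 of them with a member's TSS nearest, at 8 genes. The ratio of densities was 5.20 with windows of 10 kb, 2.93 with windows of 100 kb, 4.17 when peaks had to overlap by 50% of both 4.28 when summits had to lie within 100 bp, 3.03 without Etv6 (chosen after seeing the data) and 3.29 to 3.45 with 1 library left out. The median percentile was 39.2 by pileup over the genome-wide background and 40.1 to 43.9 with 1 library left out. The share of windows with the PU.1 string was 0 within 50 bp of the mean summit. Among single genes, windows of 10 kb left Etv3 with 0 regions, Ets2 with 1 and Elf1 with 3, and windows of 100 kb gave Elf4 3 and gave Ets1 1, which was the strongest Fli1 region. No paired analysis was possible because the results come from no test and the library numbers, given in label order, pair no samples. Limits are the 2 libraries of unstated origin, the low pileups (a median of 19 and 20 fragments at the 33 summits), and assignment by distance, which does not show which gene a region acts on.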
